A study of Mus musculus with 6 samples.

Results

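The genes described here encode proteins of the splicing machinery and the RNA-binding proteins that steer it. They are the entries of the deposited gene expression table whose symbols begin with Srsf, Hnrnp, Sf3a, Sf3b, Prpf followed by a number, or Snrp, without Hnrnpd. The rule finds 63 of 22564 genes. They fall into 11 SR protein genes, 19 hnRNP genes, 8 genes of the SF3A and SF3B complexes, 13 PRPF genes and 12 Snrp genes. The RNA came from cells that the labels call EOMA, an endothelioma line of the mouse, though endothelial marker genes were near 0 in them. Cells were kept for 24 h with 2 µM DHTS (3 libraries) or for 24 h with the solvent DMSO (3 libraries), both in medium with serum under normoxia. DHTS is 15,16-dihydrotanshinone I, a compound of the root of Salvia miltiorrhiza. The values describe a single cell line, and its identity as EOMA rests on the label. Whether each library was made from a culture of its own is not stated in the labels. The p-values therefore weigh the difference against the spread between libraries, which may be technical.

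The spliceosome removes introns from new transcripts. It is built from small nuclear ribonucleoproteins (snRNPs), in which a ring of Sm proteins, made by Snrp genes, holds a short RNA. The SF3A and SF3B complexes are parts of the U2 snRNP and grip the branch point, and PRPF proteins form the tri-snRNP and the catalytic core. SR proteins and hnRNPs are not fixed parts of that machine: they bind the transcript and, often with opposite effects, set which exons are kept. Many SR genes hold a conserved exon whose inclusion marks their own transcript for nonsense-mediated decay.

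Splicing protein genes moved by small amounts with DHTS, in directions that differed by family. Of the 62 genes tested, 28 passed the threshold (adjusted p under 0.05, limma), which is 45.2%, against 50.1% of all 11416 tested genes. Of these 28, 10 were higher with DHTS (28.2% of all tested genes were) and 18 were lower (21.9% of all tested genes were). Under quantile normalization the comparison turned: 22.6% of members were lower, against 29.9% of all tested genes. Among genes for SR proteins and hnRNPs 1 was higher and 14 lower of 29 (51.7% called). Among SF3 and PRPF genes 9 were higher and 1 lower of 21 (47.6% called), so both shares were near the 50.1% of all tested genes. No test between families was made. The remaining gene, Srsf12, was listed at 0 in all 6 libraries and was not tested.

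Not one of the 62 genes reached a log2 fold change of 0.5 in size, against 22.9% of all tested genes that passed the threshold with at least that size. Fold changes are on the log2(FPKM + 1) scale, where FPKM is a fragment count scaled to transcript length and library size. They ran between −0.43 for Hnrnph3 and 0.42 for Sf3b5 and Prpf8. The median size was 0.13, against 0.25 over all tested genes, and the signed median was −0.06, against 0.03 over all tested genes. The 3 DHTS values lay wholly above or below the 3 DMSO values for 34 members (54.8%), against 59.8% of all tested genes. The members' share of calls is thus near that of the table as a whole. Together the 63 genes held 1.43%, 1.43% and 1.40% of all FPKM with DHTS, against 1.49%, 1.53% and 1.50% with DMSO.

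**Figure D1:**
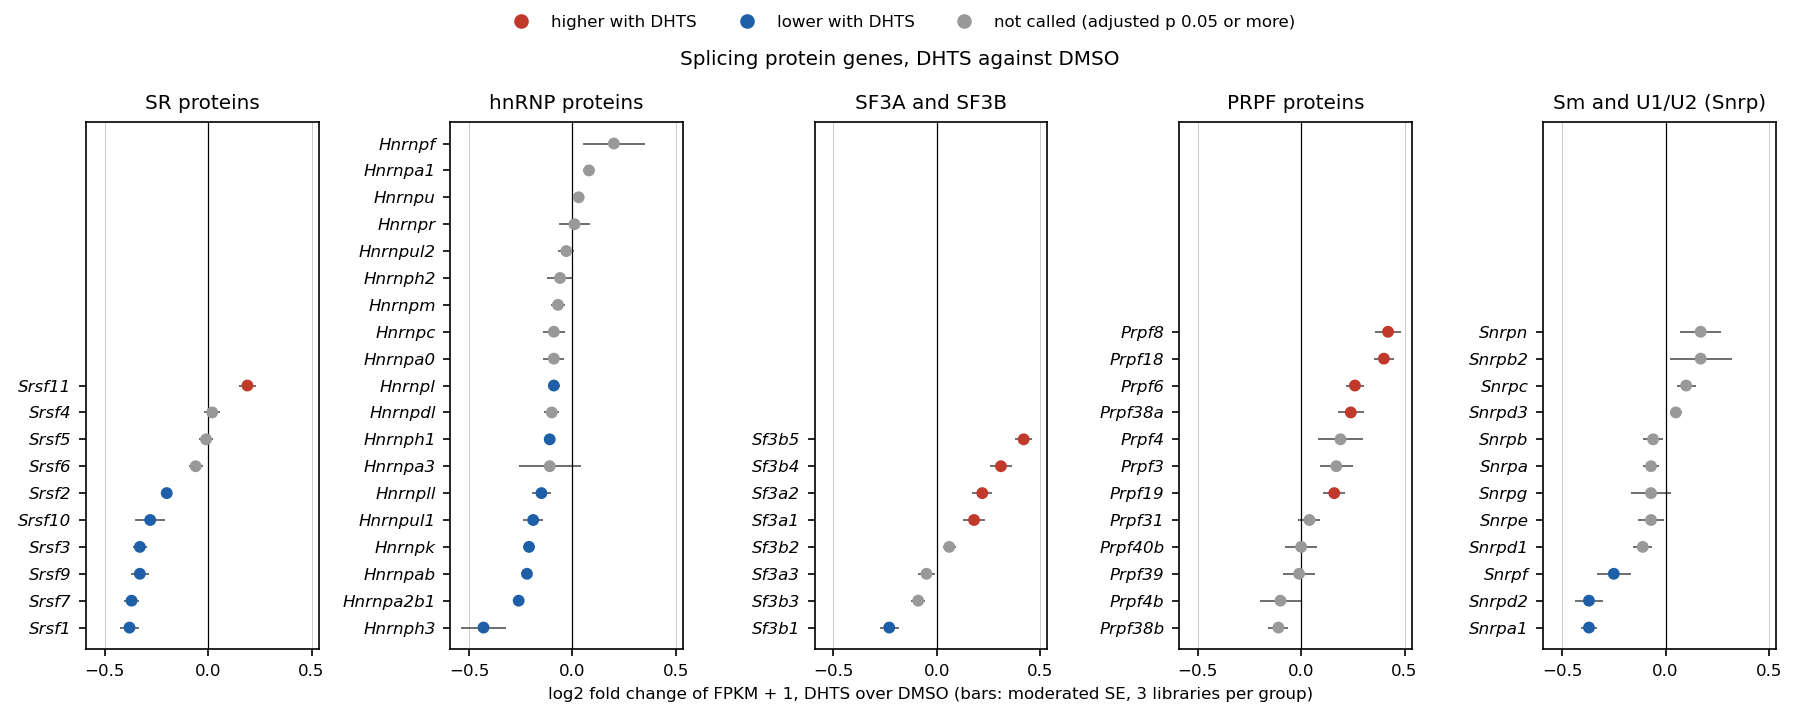
Log2 fold change of FPKM + 1 (horizontal axis, DHTS over DMSO) for the members reported by name, by family, with bars for the moderated standard error over 3 libraries a group. Red points passed the threshold higher with DHTS (10 genes), blue points lower (18 genes) and grey points did not pass. Red points lie mostly in the SF3 and PRPF panels and blue points mostly in the SR and hnRNP panels.

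The tested members were well covered, with means over the 6 libraries between 7.93 FPKM (Snrpn) and 529.6 FPKM (Snrpd3). Libraries held 9343160 to 11113864 estimated fragments with DHTS and 9753778 to 12255249 with DMSO. Pearson correlations of log2(FPKM + 1) over tested genes were 0.986 to 0.989 within groups and 0.929 to 0.932 between groups. The endothelial label was checked on 12 marker genes: only Esam averaged at least 1 FPKM, and Icam2, Fli1, Tie1 and Emcn were at 0 in all 6 libraries. Cdh5, which defines endothelial junctions, had 0.0481, 0 and 0 FPKM with DHTS and 0 FPKM in all DMSO libraries. Their summed level was 5.21 to 12.5 FPKM with DHTS and 0.904 to 2.14 FPKM with DMSO. Of 8 epithelial marker genes 5 averaged at least 1 FPKM, with a summed level of 256 to 264 FPKM with DHTS and 214 to 219 FPKM with DMSO. These epithelial genes went in both directions. Krt18 had 201, 198 and 192 FPKM with DHTS and 136, 134 and 139 FPKM with DMSO, and Krt8 was higher too, at 2.96 to 4.76 FPKM with DHTS and 1.05 to 1.62 FPKM with DMSO. Epcam was lower, at 16.7 to 18.0 FPKM with DHTS and 22.8 to 25.0 FPKM with DMSO, and so was Elf3, at 18.1 to 21.1 FPKM with DHTS and 34.1 to 35.8 FPKM with DMSO. Cdh1, which defines epithelial junctions, Krt19 and Cldn7 stayed under 1 FPKM in all 6 libraries. The markers thus go against the endothelial label in both groups. The part of these marker differences in the results was not tested. FPKM is a share of each library's RNA, so fewer cells of a type and less RNA per cell cannot be told apart.

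SR protein genes mostly fell with DHTS. Of 10 tested, 6 were lower and 1 was higher (70.0% called, against 50.1% of all tested genes). The median log2 fold change of the SR genes was −0.24. Summed over the family, the level was 1446, 1433 and 1449.9 FPKM with DHTS, against 1642, 1638 and 1638 FPKM with DMSO, so the groups did not overlap. Srsf1, the prototype SR protein, which binds exonic enhancers, lies on chromosome 11 (mm10, 88047373 to 88053755). It stood at 178, 164 and 172 FPKM with DHTS, against 214, 228 and 229 FPKM with DMSO. All 3 DHTS values were below all DMSO values, and Srsf1 fell by 23.3% (log2 fold change −0.38 ± 0.045 SE, adjusted p = 0.00041). Srsf7 (chromosome 17, 80200080 to 80207307), which also links spliced mRNA to nuclear export, stood at 50.9, 53.5 and 51.9 FPKM with DHTS and at 67.9, 68.1 and 66.2 FPKM with DMSO. It fell by 22.7% (log2 fold change −0.37 ± 0.038 SE, adjusted p = 0.00024), with no overlap. Srsf3, the smallest SR protein, had 166, 166 and 160.2 FPKM with DHTS and 206, 214 and 201 FPKM with DMSO. Its log2 fold change was −0.33 ± 0.035 (adjusted p = 0.00025), again with the groups apart.

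Srsf9, a close relative of Srsf1, had 141, 143 and 139.9 FPKM with DHTS, against 189, 169.9 and 177 FPKM with DMSO (log2 fold change −0.33 ± 0.043 SE, adjusted p = 0.0007). Srsf2, also known as SC35 and a marker protein of nuclear speckles, was the most abundant SR gene per length in DMSO cells, at 321 FPKM. Its values were tightly grouped: 279, 281 and 280.0 FPKM with DHTS, against 323, 322 and 320.0 FPKM with DMSO. Srsf2 therefore passed with a change of only −0.20 ± 0.024 (adjusted p = 0.0005). Of its exonic bases 25.3% are shared with Mettl23 and Mfsd11, whose reads cannot be told apart from its own where the counting does not use strand. Srsf10, which turns from activator to repressor when it loses phosphate, had 79.0, 72.3 and 88.3 FPKM with DHTS and 92.5, 99.4 and 98.0 FPKM with DMSO. Its DHTS libraries were spread widely, with the highest just below the lowest DMSO value, and its call (log2 fold change −0.28 ± 0.074 SE, adjusted p = 0.018) was lost without DHTS replicate 1, DMSO replicate 2 or DMSO replicate 3 (adjusted p up to 0.058).

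Srsf11 was the SR gene that rose. Its product is known to bind the U2AF factor of the 3′ splice site, and it had 126, 119 and 124 FPKM with DHTS, against 104, 112 and 108 FPKM with DMSO (log2 fold change 0.19 ± 0.042 SE, adjusted p = 0.009). Its groups did not overlap either. The other 3 SR genes did not pass. Srsf5, a binder of purine-rich exonic enhancers, had 275, 279 and 280.4 FPKM with DHTS and 292, 269 and 282 FPKM with DMSO, with overlap and a log2 fold change of −0.01 (adjusted p = 0.78). Srsf6 had 93.7, 98.4 and 94.8 FPKM with DHTS and 99.4, 98.8 and 99.9 FPKM with DMSO, which do not overlap but differ by −0.06 on the log2 scale (adjusted p = 0.21). Srsf6 passed when the deposited scaled fragments were tested in place of FPKM (adjusted p = 0.013). Srsf4, at 0.02, shares 43.0% of its exonic bases with another gene. The fragments of Srsf3, Srsf7, Srsf9 and Srsf11 are not whole numbers, though none of these genes shares exonic bases with another, and on the scaled fragments their log2 fold changes were −0.32, −0.38, −0.34 and 0.16. Over all families, 25 of 63 genes share exonic bases with another gene, 15 of them at least 5% of those bases.

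**Figure D2:**
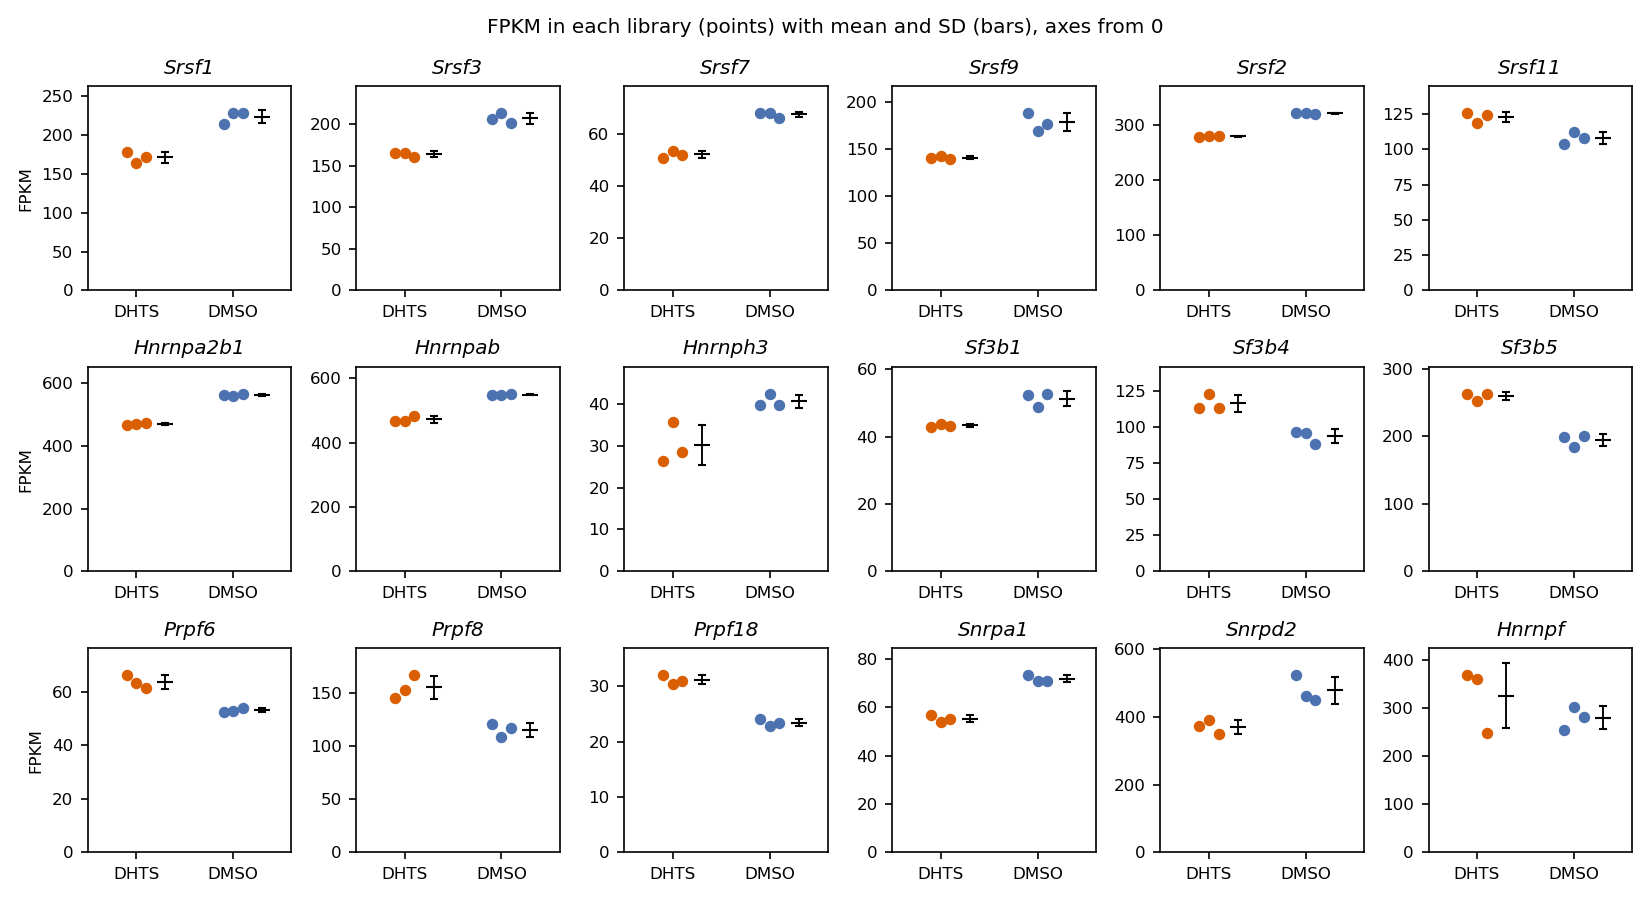
FPKM (vertical axis, from 0) of 18 members in each library, DHTS on the left in orange and DMSO on the right in blue, with the mean and SD of 3 libraries beside the points. Shown are 17 of the 18 members whose call held in every alternative (all but Sf3a2), each with its groups apart, and Hnrnpf, with DHTS libraries at 369, 359 and 247 FPKM.

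Every hnRNP gene that passed was lower with DHTS. Of 19 tested, 8 were lower, 0 were higher and 11 did not pass. Called genes made up 42.1%, against 50.1% of all tested genes (21.9% lower). The median log2 fold change of the hnRNP genes was −0.09. The summed level was 3715, 3714 and 3646 FPKM with DHTS, against 3928, 3957 and 3966 FPKM with DMSO. The count of lower genes was 5 without DHTS replicate 1, without DHTS replicate 2 or without DMSO replicate 3. Hnrnpa2b1 (chromosome 6, 51460932 to 51469894), whose proteins package and sort RNA, is one of the 2 most abundant hnRNP genes per length, with Hnrnpab. It had 466, 468 and 472 FPKM with DHTS, against 563, 558 and 566 FPKM with DMSO. It fell by 16.5% (log2 fold change −0.26 ± 0.023 SE, adjusted p = 0.00011), a gap far wider than the spread in either group. Hnrnpab, an RNA- and DNA-binding hnRNP, had 466, 467 and 484 FPKM with DHTS and 548, 548 and 552 FPKM with DMSO. The groups were apart (log2 fold change −0.22 ± 0.026 SE, adjusted p = 0.00048). Of its exonic bases 29.1% are shared with Phykpl.

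The H and F proteins bind runs of G. Hnrnph3 fell the most of all members: 26.4, 35.6 and 28.4 FPKM with DHTS, against 39.6, 42.4 and 39.8 FPKM with DMSO (log2 fold change −0.43 ± 0.11 SE, adjusted p = 0.013). DHTS replicate 2 lay between the other DHTS libraries and the DMSO libraries. On the scaled fragments the log2 fold change of Hnrnph3 was −0.56, past the size of 0.5. Hnrnph1, its more abundant relative, was lower by a small margin (log2 fold change −0.11, adjusted p = 0.0094). That call did not hold under quantile normalization (adjusted p = 0.88) or without the trend and robust options. Hnrnph2 did not pass (−0.06). Hnrnpf had 369, 359 and 247 FPKM with DHTS, against 255, 302 and 282 FPKM with DMSO. Its DHTS replicate 3 was below all DMSO libraries and the other 2 above them, so the log2 fold change of 0.20 did not pass (adjusted p = 0.32), while it was 0.38 without DHTS replicate 3 (adjusted p = 0.0068). Of the exonic bases of Hnrnpf 26.5% are shared with 4933440N22Rik and Gm43863.

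Hnrnpk, a binder of C-rich RNA, had 355, 347 and 339.6 FPKM with DHTS, against 393, 406 and 408 FPKM with DMSO (log2 fold change −0.21 ± 0.03 SE, adjusted p = 0.0011). Those groups did not overlap, and the call held in 14 of 15 alternatives, all but quantile normalization (adjusted p = 0.074). Hnrnpul1, a relative of the scaffold protein hnRNP U, had 56.2, 57.3 and 61.6 FPKM with DHTS and 66.1, 64.7 and 68.7 FPKM with DMSO (log2 fold change −0.19 ± 0.049 SE, adjusted p = 0.017). Hnrnpll, which directs exon skipping in the Cd45 transcript of lymphocytes, had 38.1, 38.8 and 40.9 FPKM with DHTS and 43.8, 43.6 and 43.8 FPKM with DMSO (log2 fold change −0.15 ± 0.044 SE, adjusted p = 0.024). Both were lower in all 3 DHTS libraries. Its paralog Hnrnpl, a binder of CA-rich RNA, had 200.3, 198 and 197 FPKM with DHTS and 209.6, 209 and 217 FPKM with DMSO (log2 fold change −0.09 ± 0.029 SE, adjusted p = 0.03). The calls of Hnrnpl, Hnrnpll and Hnrnpul1 were lost when single libraries were left out: without DHTS replicate 1, without DHTS replicate 2 and without DMSO replicate 3 for each of them, Hnrnpl and Hnrnpll also without DMSO replicate 2, Hnrnpl without DHTS replicate 3 and Hnrnpll without DMSO replicate 1 (over all alternatives, adjusted p up to 0.12 for Hnrnpl, 0.074 for Hnrnpll and 0.057 for Hnrnpul1).

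Other classic hnRNPs did not pass. Hnrnpa1, known for opposing SR proteins at competing splice sites, had 390.2, 384 and 393 FPKM with DHTS, against 369.7, 359.7 and 376 FPKM with DMSO. The DHTS values were all above the DMSO values, but the difference was only 0.08 ± 0.028 (adjusted p = 0.056), and it passed under quantile normalization and on the scaled fragments (adjusted p = 0.0027 and 0.039). Hnrnpdl had 143, 143 and 152 FPKM with DHTS and 153, 158 and 157 FPKM with DMSO, without overlap (log2 fold change −0.10, adjusted p = 0.057). Its fall was past the threshold on the scaled fragments, with median-ratio scaling and without DHTS replicate 3. Hnrnpc, which covers U-rich tracts, had 73.6, 75.4 and 70.5 FPKM with DHTS and 75.7, 83.3 and 75.3 FPKM with DMSO, with overlap (adjusted p = 0.18). Hnrnpu, a nuclear scaffold protein, had 279, 285 and 287 FPKM with DHTS and 277, 279.7 and 277 FPKM with DMSO (log2 fold change 0.03, adjusted p = 0.39). Its sign turned under median-ratio scaling, where it was −0.01, and under quantile normalization it passed at 0.11. Hnrnpa0, Hnrnpa3, Hnrnpm, Hnrnpr and Hnrnpul2 lay between −0.11 and 0.01, none of them called.

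More SF3 genes passed higher than lower with DHTS. Of 8, 4 were higher, 1 was lower and 3 did not pass (62.5% called, against 50.1% of all tested genes). The median log2 fold change of the SF3 genes was 0.12. Their summed level was 774, 769.8 and 777 FPKM with DHTS, against 698, 669 and 679 FPKM with DMSO, with no overlap. Sf3b5 (chromosome 10, 13005343 to 13009183), the smallest SF3B subunit, had 263, 252 and 263 FPKM with DHTS, against 199, 184 and 199.8 FPKM with DMSO. It was 33.9% higher with DHTS (log2 fold change 0.42 ± 0.042 SE, adjusted p = 0.00018). The lowest DHTS library exceeded every DMSO library. Sf3b4, the SF3B subunit that contacts RNA beside the branch point, had 113, 123 and 113 FPKM with DHTS and 96.8, 96.0 and 88.3 FPKM with DMSO (log2 fold change 0.31 ± 0.052 SE, adjusted p = 0.0024). Of the SF3A subunits, Sf3a2 had 60.0, 54.5 and 58.5 FPKM with DHTS and 50.6, 48.7 and 49.2 FPKM with DMSO (log2 fold change 0.22 ± 0.048 SE, adjusted p = 0.0089), and 16.1% of its exonic bases are shared with Plekhj1. Each of these genes rose without overlap of its groups.

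Sf3a1, which joins SF3A to the rest of the U2 snRNP, had 27.7, 28.3 and 27.9 FPKM with DHTS and 25.9, 24.0 and 23.9 FPKM with DMSO (log2 fold change 0.18 ± 0.052 SE, adjusted p = 0.025). It passed in 7 of 15 alternatives and was lost without any 1 of DHTS replicates 1, 2 and 3 or DMSO replicates 2 and 3 (adjusted p up to 0.18 over the alternatives). Sf3b1 (chromosome 1, 54985169 to 55027481), the large subunit that holds the branch point helix and the target of several splicing inhibitors, moved the other way. It had 43.0, 43.9 and 43.3 FPKM with DHTS, against 52.3, 48.8 and 52.8 FPKM with DMSO, and fell by 15.4% (log2 fold change −0.23 ± 0.045 SE, adjusted p = 0.0045). Subunits of 1 complex thus differed in sign, with Sf3b5 and Sf3b4 up and Sf3b1 down, each apart from its DMSO values. Sf3b2 (0.06), Sf3b3 (−0.09) and Sf3a3 (−0.05) did not pass. Sf3b2 did under quantile normalization (adjusted p = 0.039), and Sf3b3 did with median-ratio scaling and on the scaled fragments (adjusted p = 0.013 on the latter).

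Every PRPF gene that passed was higher with DHTS: 5 of 13 were higher, 0 were lower and 8 did not pass. Called genes made up 38.5%, against 50.1% of all tested genes (28.2% higher). The median log2 fold change of the PRPF genes was 0.16. The count of higher genes was 3 without DMSO replicate 2 and 3 without DMSO replicate 3. Summed, the family stood at 631, 639 and 632 FPKM with DHTS and at 564, 546 and 577 FPKM with DMSO. Prpf8 (chromosome 11, 75486816 to 75509449), the scaffold of the catalytic core, had 145, 153 and 167 FPKM with DHTS, against 121, 108 and 117 FPKM with DMSO. It was 34.8% higher with DHTS (log2 fold change 0.42 ± 0.063 SE, adjusted p = 0.0013) with clear separation of the groups. Prpf18, a factor of the second catalytic step, had 32.1, 30.5 and 30.9 FPKM with DHTS and 24.1, 22.8 and 23.4 FPKM with DMSO (log2 fold change 0.40 ± 0.049 SE, adjusted p = 0.00054). Prpf6, the bridge within the tri-snRNP, had 66.5, 63.5 and 61.5 FPKM with DHTS and 52.6, 52.8 and 54.0 FPKM with DMSO (log2 fold change 0.26 ± 0.043 SE, adjusted p = 0.0021). Both rose in every DHTS library relative to every DMSO library.

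Prpf38a, needed for activation of the assembled spliceosome, had 50.7, 46.9 and 43.2 FPKM with DHTS and 40.4, 39.2 and 39.0 FPKM with DMSO (log2 fold change 0.24 ± 0.063 SE, adjusted p = 0.017). Prpf19, the ubiquitin ligase that names the PRP19 complex, had 29.5, 30.6 and 28.2 FPKM with DHTS and 27.1, 25.4 and 26.3 FPKM with DMSO (log2 fold change 0.16 ± 0.053 SE, adjusted p = 0.042). In both genes the lowest DHTS value was above the highest DMSO value. Prpf38a was lost under quantile normalization, without DMSO replicate 2 and without DMSO replicate 3 (adjusted p up to 0.054). Prpf19 passed in 7 of 15 alternatives and was lost without any 1 of DHTS replicates 1 and 2 or DMSO replicates 1, 2 and 3 (adjusted p up to 0.29). Prpf4b, a kinase of the family, had 14.0, 12.0 and 14.9 FPKM with DHTS and 13.3, 15.7 and 15.0 FPKM with DMSO, with overlap (log2 fold change −0.10, adjusted p = 0.44). The U4/U6 proteins Prpf3, Prpf4 and Prpf31 (0.17, 0.19 and 0.04), the U1-associated Prpf39 and Prpf40b (−0.01 and 0.00) and Prpf38b (−0.11) did not pass.

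Of 12 Snrp genes 3 were lower and 0 higher, and 9 did not pass, with a median of −0.07. Called genes made up 25.0%, against 50.1% of all tested genes (21.9% lower). Snrpa1 (chromosome 7, 66059003 to 66074587), the U2-A′ protein of the U2 snRNP, had 56.8, 53.8 and 54.9 FPKM with DHTS, against 73.4, 70.9 and 70.8 FPKM with DMSO. It fell by 23.2% (log2 fold change −0.37 ± 0.039 SE, adjusted p = 0.00025) with the groups far apart. Snrpb2, the gene of its partner U2-B″, had 36.5, 44.5 and 28.7 FPKM with DHTS and 34.5, 32.5 and 28.9 FPKM with DMSO, a wide spread with no call (log2 fold change 0.17 ± 0.15 SE, adjusted p = 0.38). The Sm ring proteins are B, D1, D2, D3, E, F and G. Snrpd2 had 373, 390.1 and 349.6 FPKM with DHTS and 525, 462 and 451 FPKM with DMSO (log2 fold change −0.37 ± 0.066 SE, adjusted p = 0.0033). Its ring neighbour Snrpf had 128, 136 and 116 FPKM with DHTS and 153, 163 and 136 FPKM with DMSO, where DHTS replicate 2 nearly met DMSO replicate 3. Snrpf passed at −0.25 ± 0.081 (adjusted p = 0.037) but was lost in 7 alternatives, among them without DHTS replicate 1, DHTS replicate 3, DMSO replicate 1 or DMSO replicate 2 (adjusted p up to 0.11). Of its exonic bases 85.4% are shared with 4933408J17Rik and Ccdc38, so its value is uncertain.

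The other Sm genes did not pass. Snrpb had 303, 299 and 306 FPKM with DHTS and 339, 309 and 299.5 FPKM with DMSO, with overlap (log2 fold change −0.06, adjusted p = 0.35, and 0.06 under quantile normalization). Its paralog Snrpn, which is imprinted and known for its expression in brain, was low at 7.36, 9.42 and 8.66 FPKM with DHTS and 7.13, 6.96 and 8.05 FPKM with DMSO (log2 fold change 0.17, adjusted p = 0.21). Of the exonic bases of Snrpn 14.4% are shared with 5 other annotated genes, among them Snurf, Snhg14 and another entry named Snrpn. Snrpd3 averaged 538 ± 13.5 FPKM with DHTS and 521 ± 5.09 FPKM with DMSO (SD, n = 3 each), a log2 fold change of 0.05. Snrpd1, Snrpe and Snrpg lay between −0.11 and −0.07. So within the ring the calls covered D2 and F, and the levels of the remaining ring genes overlapped between groups. The U1 proteins Snrpa (−0.07) and Snrpc (0.10) were not called.

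**Figure D3:**
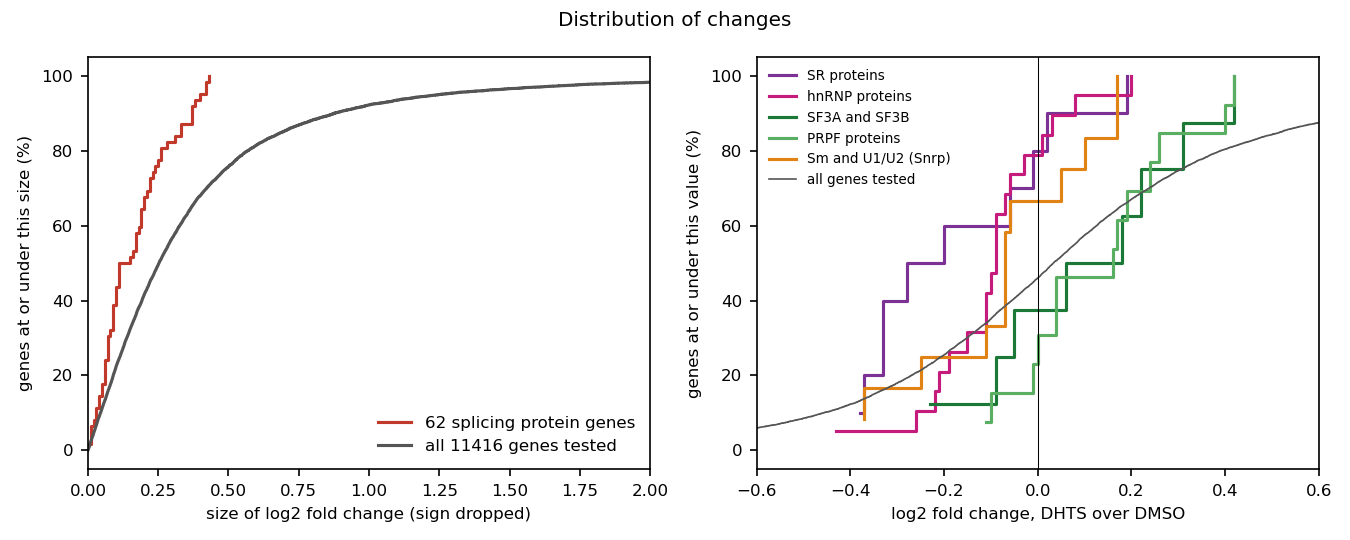
Left, the share of genes (vertical axis, %) at or under each size of log2 fold change, for the 62 members in red and all 11416 tested genes in grey. Right, the same for the signed log2 fold change of each family, DHTS over DMSO. The members end at 0.43 in size, and the SR and hnRNP curves lie left of the SF3 and PRPF curves.

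A gene-level FPKM sums transcripts of several kinds, and their annotation is given here without a test. GENCODE M21 lists a transcript with the nonsense-mediated decay biotype for 31 of 62 members (50.0%), against 29.5% of 11338 tested genes with an annotation. It does so for 9 of 10 SR genes (90.0%) and 1 of 8 SF3 genes (12.5%). By call, 12 of 18 lower members (66.7%), 1 of 10 higher members (10.0%) and 18 of 34 members not called (52.9%) had such a transcript. These groups also differ in how many transcripts are listed per gene, with medians of 7.5, 4.0 and 6.0, against 5.0 over tested genes. They differ in family too, so the split by call cannot be told apart from either. A transcript with a retained intron is listed for 72.6% of members and 60.3% of tested genes. The deposited values sum all transcripts of a gene, so a shift between productive and unproductive transcripts of Srsf1 or Srsf3 cannot be seen in them.

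Promoters are shown for the largest falls among SR genes, for the largest rise among SF3 and PRPF genes with a promoter entry, and for the called-higher members that hold an ETS-type motif within the 250 bases before the start, a choice made after the motifs were counted. Each is the 120 bases before the first start that RefSeq lists (build GRCm38.p6), on the gene's strand, and capitals mark matches to 7 motifs sought on both strands. These are the CCAAT box (CCAAT), the GC box (GGGCGG), the ETS-type motif (CCGGAAG), the E-box (CACGTG), the CRE (TGACGTCA), the core of the NRF1 motif (GCATGCGC) and TATAAA.
Srsf1, chr11:88047253-88047372, plus strand, lower with DHTS: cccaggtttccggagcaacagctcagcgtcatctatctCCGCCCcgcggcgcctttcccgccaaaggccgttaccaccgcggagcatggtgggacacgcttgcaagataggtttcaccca
Srsf7, chr17:80207306-80207425, minus strand, lower with DHTS: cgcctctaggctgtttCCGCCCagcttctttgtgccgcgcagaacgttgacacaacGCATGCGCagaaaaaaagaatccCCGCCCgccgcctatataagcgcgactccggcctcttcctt
Srsf9, chr5:115327057-115327176, plus strand, lower with DHTS: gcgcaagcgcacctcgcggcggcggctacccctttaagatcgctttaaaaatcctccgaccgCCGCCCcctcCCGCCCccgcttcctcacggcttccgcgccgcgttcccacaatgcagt
Prpf8, chr11:75486657-75486776, plus strand, higher with DHTS: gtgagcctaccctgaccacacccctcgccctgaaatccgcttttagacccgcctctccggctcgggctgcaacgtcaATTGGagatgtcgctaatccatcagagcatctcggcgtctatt
Prpf19, chr19:10895111-10895230, plus strand, higher with DHTS: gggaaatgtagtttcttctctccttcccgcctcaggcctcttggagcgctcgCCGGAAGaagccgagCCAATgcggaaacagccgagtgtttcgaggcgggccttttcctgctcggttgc
Sf3a1, chr11:4160234-4160353, plus strand, higher with DHTS: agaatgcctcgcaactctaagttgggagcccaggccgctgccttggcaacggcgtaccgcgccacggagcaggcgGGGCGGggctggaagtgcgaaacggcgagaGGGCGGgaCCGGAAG
Sf3a2, chr10:80798615-80798734, plus strand, higher with DHTS: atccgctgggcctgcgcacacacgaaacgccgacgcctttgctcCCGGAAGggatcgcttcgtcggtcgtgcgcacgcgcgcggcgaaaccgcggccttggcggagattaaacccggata
Srsf11, chr3:158036607-158036726, minus strand, higher with DHTS: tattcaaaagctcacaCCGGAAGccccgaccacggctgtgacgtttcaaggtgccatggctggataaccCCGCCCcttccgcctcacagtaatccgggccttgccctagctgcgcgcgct

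Of the 62 tested members, 54 matched a promoter entry. Over the 250 bases before the start, CCAAT was found in 27 of 54 members (50.0%), against 37.1% of 8544 tested genes with an entry. The ETS-type motif was found in 15 of 54 (27.8%), against 14.8% of tested genes. By family it was found in 5 of 6 SF3, 4 of 10 SR, 3 of 10 Snrp, 2 of 11 PRPF and 1 of 17 hnRNP promoters. By call it was found in 4 of 7 promoters of higher members and in 1 of 17 promoters of lower members. Higher and lower members also differ in family, so this split by call cannot be told apart from family. CCAAT was found in 12 of 17 hnRNP promoters (70.6%) and 3 of 10 SR promoters (30.0%). The GC box, at 64.8% of members and 62.2% of tested genes, was about as frequent in both. The E-box (7.4% and 8.7%), the CRE (3.7% and 2.8%), the NRF1 core (1.9% and 4.9%) and TATAAA (9.3% and 5.8%) were rare in members as in tested genes. These counts describe letters in a window and were not tested.

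Genes of the splicing pathway outside these families moved in both directions. Of 194 listed, 179 were tested, 38 were higher and 39 lower (43.0% called, against 50.1% of all tested genes). Unlike the members, 13 of them (7.3%) passed with a size of at least 0.5, against 22.9% of all tested genes. The range was −0.91 to 1.29, and the median size was 0.15, against 0.25 over all tested genes. Among splice site recognition factors 7 of 18 were higher and 4 lower (61.1% called), led by Rbm17, a partner of SF3B1 at the 3′ splice site. Rbm17 had 162, 165 and 164 FPKM with DHTS, against 89.7, 101 and 91.0 FPKM with DMSO (log2 fold change 0.80, adjusted p = 1.9e-05). Among PRP19-related and catalytic step proteins 7 of 23 were higher and 4 lower (47.8% called). They include Slu7, which acts with PRPF18 in the second step (0.57, adjusted p = 0.00065), and Bcas2, a subunit of the PRP19 complex (0.47, adjusted p = 0.00014). Spliceosomal helicases had 4 of 13 higher and 2 lower (46.2% called), with Dhx35 at 0.47 and Dhx38 at 0.35.

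Of the SR kinases and SR-like proteins 5 of 21 were higher and 1 lower (28.6% called, against 50.1% of all tested genes). Clk1, a kinase that phosphorylates SR proteins, had 37.1, 36.2 and 31.3 FPKM with DHTS and 22.7, 20.8 and 30.0 FPKM with DMSO (0.51, adjusted p = 0.019). The fragments of Clk1 are not whole numbers. Clk3 was at 0.42 (adjusted p = 0.0012). The kinase genes Clk2 (−0.06), Clk4 (0.06), Srpk1 (0.04) and Srpk2 (0.03) did not pass. Of the hnRNP-like binders 5 of 24 were higher and 9 lower (58.3% called). Rbmx, which encodes hnRNP G, had 6.57, 8.09 and 5.47 FPKM with DHTS, against 12.4, 14.7 and 13.2 FPKM with DMSO (−0.91, adjusted p = 0.0012), a larger fall than that of any member. Its fragments are not whole numbers. Fubp1 rose by 0.78 (adjusted p = 2.5e-05). Of the exon junction and decay genes 3 of 17 were higher and 4 lower (41.2% called). The higher ones include Upf3b (0.82, adjusted p = 3.5e-05) and Upf3a (0.45, adjusted p = 0.00092). The lower ones were Smg5 (−0.27), Magoh (−0.19), Rbm8a (−0.17) and Rnps1 (−0.09).

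Other snRNP proteins had 2 of 21 higher and 3 lower (23.8% called, against 50.1% of all tested genes). LSm proteins, relatives of the Sm proteins, had 0 of 8 higher and 2 lower (25.0% called). In the SMN complex, which loads Sm rings, and Sm methylation, 2 of 17 were higher and 5 lower (41.2% called). Prmt1, an arginine methyltransferase of many hnRNPs, had 229.9, 256 and 255 FPKM with DHTS and 364, 357 and 356 FPKM with DMSO (−0.54, adjusted p = 8.4e-05). Prmt5 was lower too (−0.37, adjusted p = 0.00029), while Snupn was higher (0.55, adjusted p = 0.0079). Of the tissue and cell-type regulators 3 of 17 were higher and 5 lower (47.1% called). Rbm38, a target of p53, had 114, 118 and 112 FPKM with DHTS, against 55.9, 51.2 and 54.1 FPKM with DMSO (1.08, adjusted p = 2.8e-06). Esrp2, an epithelial splicing regulator, had 10.1, 8.21 and 6.17 FPKM with DHTS and 2.4, 2.66 and 3.0 FPKM with DMSO (1.29, adjusted p = 0.00063). Esrp1, its more abundant paralog, did not pass, with means of 17.5 FPKM with DHTS and 18.3 FPKM with DMSO (−0.06, adjusted p = 0.64). Epithelial markers moved in both directions beside Esrp2, with Krt18 higher and Epcam and Elf3 lower with DHTS.

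**Figure D4:**
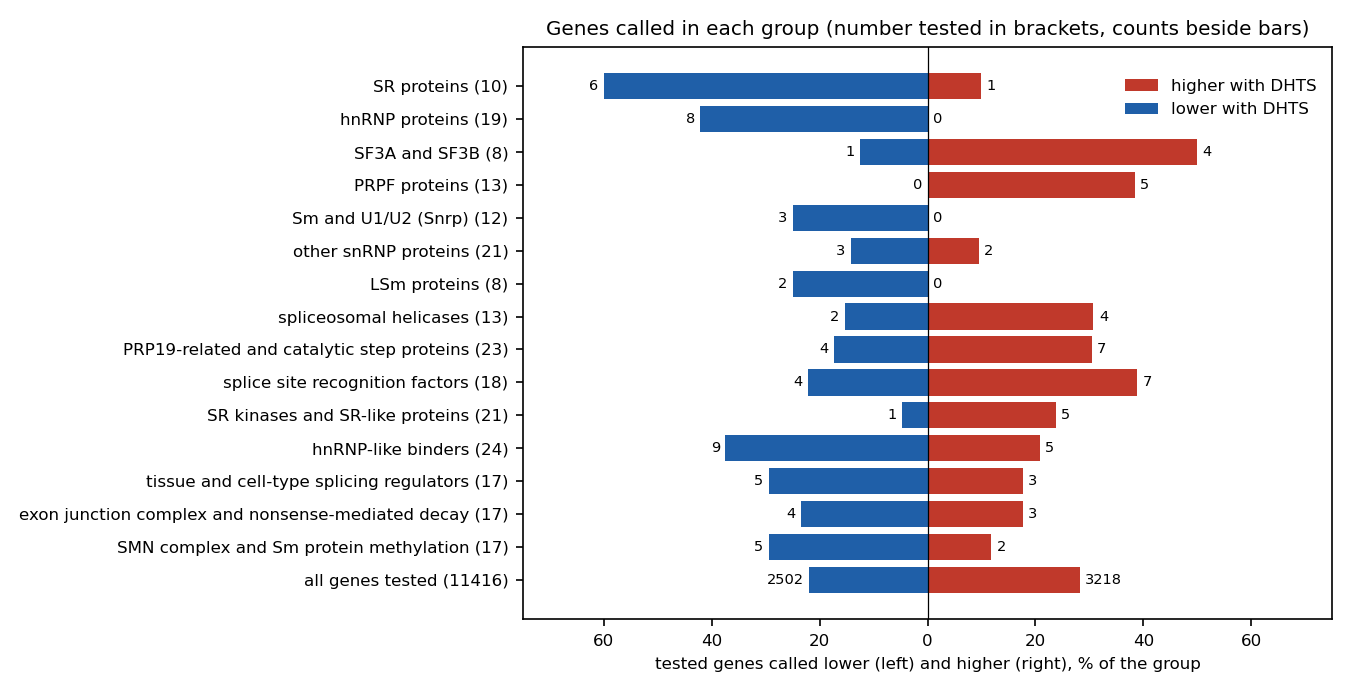
Share of tested genes (horizontal axis, % of each group) that passed lower with DHTS (blue, to the left) or higher (red, to the right), with the counts beside the bars and the number tested in brackets. The SR and hnRNP bars lie mostly to the left (6 and 8 lower against 1 and 0 higher), the SF3 and PRPF bars mostly to the right (4 and 5 higher against 1 and 0 lower), and all genes tested have 3218 higher and 2502 lower.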

How the data were processed

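Per the submitters' processing notes, the tools were Cufflinks, Cuffdiff 2.2.1, HISAT2 2.0.4 and fastp 0.20.0, with mm10 as the build. What each of them did is not given in the sources used here, nor is the annotation. The deposited FPKM were scaled to transcript length and library size by the authors. A second deposited block is a signal: estimated fragments divided by 1 factor per library, of which 92.66% to 93.02% of values came out whole (within 0.1). As 15 members hold fractional fragments (Srsf3, Srsf7, Srsf9, Srsf11 and Hnrnpa2b1 among them), no count model was fitted. The log2(FPKM + 1) values were tested in R 4.3.3 with limma 3.58.1 (trend and robust options, treatment as the only term, two-sided, all 6 libraries), over the 11416 genes with a mean of at least 1 FPKM. P-values were Benjamini-Hochberg adjusted over those genes, with a threshold of 0.05. SE is limma's moderated standard error. The fit was tested on simulated data.

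Members and lists were chosen with earlier results of these data known. Named members are up to 6 of each family with the largest change among calls (the higher group at 5 FPKM or more), plus members fixed by name, and up to 3 calls from each other list. A gene counted among the members is not reported by name here. Other members are given by their change and call, and Hnrnpf, Snrpb2 and Srsf11 were given in every library after their values were seen. Coordinates, transcripts and exon overlaps are from GENCODE M21 (mm10, counted from 1), and promoters from RefSeq GRCm38.p6. The library kit is not stated to mark strand. The fit was repeated with each library left out, on the scaled fragments, with a replicate block, with quantile normalization, with median-ratio scaling, without the trend and robust options, with no filter or one of 5 FPKM, with a pseudocount of 0.1, and without genes at 0 in a whole group.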

Additional observations from a re-analysis of the deposited data

How the results depend on the processing

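Of the 28 calls, 18 held in all 15 alternatives and 0 turned direction. Scaled fragments added Hnrnpa0, Hnrnpa1, Hnrnpdl, Hnrnpm, Prpf31, Prpf38b, Prpf4, Sf3b3, Snrpa, Snrpc and Srsf6. Median-ratio scaling added Hnrnpdl, Hnrnpm, Prpf38b, Sf3b3 and Snrpd1, and quantile normalization Hnrnpa1, Hnrnpu, Sf3b2 and Snrpd3. Leaving out DMSO replicate 2 added Prpf38b, and leaving out DHTS replicate 3 added Hnrnpdl, Hnrnpf, Prpf4 and Snrpc. Members higher and lower numbered 11 and 14 under quantile normalization, 8 and 23 under median-ratio scaling, and 14 and 25 on scaled fragments. In that order, 22.6%, 37.1% and 40.3% of members were lower, against 29.9%, 25.0% and 28.6% of all tested genes. The higher genes among all tested numbered 2551 of 11416, 2966 of 11416 and 4050 of 11930. With single libraries left out, members higher and lower numbered 7 to 12 and 13 to 17. The lower share was then 21.0% to 27.4% of members, against 19.1% to 20.2% of all tested genes. Family medians kept their signs under every scaling. Quantile normalization moved the median of all genes to −0.07, against 0.03, and the higher share of all calls to 42.8%, against 56.3% (among members 44.0%, against 35.7%, and 25.8% under median-ratio scaling).

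By family, higher hnRNP genes numbered 2 under quantile normalization and 1 on scaled fragments, and 0 to 1 with single libraries left out, and lower hnRNP genes 5 under quantile normalization and 5 to 8 with libraries left out. Lower SF3 genes numbered 2 under median-ratio scaling and 2 on scaled fragments. Higher PRPF genes numbered 3 under quantile normalization and 3 to 6 with libraries left out, and lower PRPF genes 1 under median-ratio scaling, 1 on scaled fragments and 0 to 1 with libraries left out. Higher Snrp genes numbered 1 under quantile normalization, 1 on scaled fragments and 0 to 1 with libraries left out. Among the 35 named members, 3 not called turned sign: Hnrnpu (−0.01 under median-ratio scaling), and Snrpb (0.06) and Srsf5 (0.05) under quantile normalization. Srsf5 ran from −0.04 to 0.02 with single libraries left out (0.02 without DMSO replicate 1). Signs turned for other uncalled members too, among them Srsf4 (−0.02 to 0.04 over the alternatives), Hnrnpr (−0.05 to 0.06) and Prpf31 (−0.04 to 0.13). Prpf39 (−0.15 to 0.04), Hnrnpa3 (−0.26 to 0.06) and Snrpg (−0.20 to 0.03) also crossed 0. The cause was not tested.

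Deviations of same-numbered libraries from their group means correlated at −0.045, 0.063 and 0.012, against −0.08 to 0.075 for differently numbered libraries. No shared deviation by number was seen, but this cannot show whether the libraries were prepared in pairs. With the replicate number as a block, 8 members were higher and 17 lower, and Hnrnpl, Prpf19 and Sf3a1 were lost. At 3 libraries a group, differences of about 0.1 on the log2 scale were called only where libraries lay close together (Hnrnpl −0.09 called, Hnrnpa3 −0.11 not).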
